A study of Mus musculus with 2 samples.

Results

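Laminins, integrins, the 2 nidogens and dystroglycan were described in the forebrain of mouse embryos at embryonic day 12.5. The members were the protein-coding genes named as laminin alpha, beta or gamma chains or as integrin alpha or beta chains, plus Nid1, Nid2 and Dag1, and were taken by name. The rule found 40 of 55536 annotated genes (40 of 22028 protein-coding genes): 11 laminin chains, 18 integrin alpha chains, 8 integrin beta chains, both nidogens and Dag1.

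PolyA-plus RNA was sequenced from 2 pools of B6NCrl embryos of both sexes, healthy and with no treatment named. Pool 1 came from 120 embryos and pool 2 from 68 embryos, and the labels call the pools biological replicates although both carry the same donor label. Each library was made from 10 ng of RNA with oligo-dT priming, a low-input kit that amplifies cDNA by PCR, Nextera tagmentation and ERCC spike-ins, which are synthetic RNAs of known sequence. Whole forebrain was used, so meninges, vessels and blood can be in the tissue, and fewer cells of a type and less RNA per cell cannot be told apart. The labels give 1 group and no contrast. The questions addressed were therefore which chains this tissue held, at what levels, in which transcript forms, and how far the pools differed. An exact two-sided sign-flip test over 2 pools cannot give a p below 0.5, so no test was run. Errors given as ± are SDs of the 2 pools (n = 2).

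Reads assigned to genes numbered 33373776 for pool 1 and 34406601 for pool 2. The members held 0.129% of them in pool 1 and 0.132% in pool 2. The neural markers were high: 6 of 6 neural progenitor markers (Sox2, Nes, Pax6, Hes5, Fabp7, Vim) and 5 of 5 neuron markers were detected, with summed levels in pool 1 of 2385 TPM (progenitor) and 1331 TPM (neuron), and in pool 2 of 2243 TPM (progenitor) and 1239 TPM (neuron). TPM is a transcript level per length, scaled to a fixed total per library. Markers of other cells were present too. The summed level of 7 endothelial markers, all detected, was 95.3 (pool 1) and 93.8 TPM (pool 2). That of 8 markers of mesenchyme and meninges, all detected, was 665 TPM in pool 1 and 806 in pool 2, and that of 6 erythroid markers, all detected, 10022 TPM in pool 1 and 13561 in pool 2. No listed marker had 0 counts in both pools. The part of each cell type in the members' levels was not tested.

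Laminins are secreted trimers of 1 alpha, 1 beta and 1 gamma chain that polymerise into the sheet of a basement membrane, and nidogens tie that sheet to collagen IV. Cells hold the sheet through integrins, which are pairs of an alpha and a beta chain spanning the cell membrane, and through dystroglycan, whose sugar chains bind laminin. In the embryonic forebrain a basement membrane lies under the pia, where radial glia attach their endfeet, and another surrounds the blood vessels.

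Of the DNA before the start sites of these genes, 4 windows are shown because they pair a high and a low integrin beta chain with both expressed laminin beta chains. Each is the 250 bases upstream of the RefSeq start in GRCm38.p6, written 5′ to 3′ on the gene's strand, with CG dinucleotides in capitals. Itgb1, at chr8:128685404-128685653 (+), is the highest member, and Itgb7, at chr15:102231936-102232185 (-), is below the detection threshold. Lamb1, at chr12:31265043-31265292 (+), and Lamb2, at chr9:108479612-108479861 (+), are both expressed.
Itgb1: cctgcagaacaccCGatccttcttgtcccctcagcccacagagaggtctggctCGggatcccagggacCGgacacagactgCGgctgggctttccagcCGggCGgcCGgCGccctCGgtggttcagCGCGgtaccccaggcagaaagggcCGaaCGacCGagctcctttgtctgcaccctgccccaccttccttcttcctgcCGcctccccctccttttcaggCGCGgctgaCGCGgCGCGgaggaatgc
Itgb7: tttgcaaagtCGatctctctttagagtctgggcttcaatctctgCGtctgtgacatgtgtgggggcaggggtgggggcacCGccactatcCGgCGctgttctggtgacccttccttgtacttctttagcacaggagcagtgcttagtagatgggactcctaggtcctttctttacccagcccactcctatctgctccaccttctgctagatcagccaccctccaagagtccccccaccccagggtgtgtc
Lamb1: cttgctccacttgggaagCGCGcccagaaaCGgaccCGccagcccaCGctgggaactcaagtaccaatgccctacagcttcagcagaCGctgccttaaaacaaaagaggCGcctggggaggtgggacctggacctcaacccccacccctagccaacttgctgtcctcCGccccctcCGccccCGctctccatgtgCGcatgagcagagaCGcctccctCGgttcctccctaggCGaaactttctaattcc
Lamb2: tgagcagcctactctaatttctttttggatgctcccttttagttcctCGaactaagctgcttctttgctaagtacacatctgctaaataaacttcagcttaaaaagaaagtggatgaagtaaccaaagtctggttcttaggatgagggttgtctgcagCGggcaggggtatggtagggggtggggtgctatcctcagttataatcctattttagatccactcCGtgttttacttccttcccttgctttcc
The Itgb1 window holds 21 CG dinucleotides, the Itgb7 window 5, the Lamb1 window 14 and the Lamb2 window 3. Lamb2 was among the highest members, at 30.2 TPM. A link between CG count and level was not tested. The windows of Lamb1, Lamb2 and Itgb7 run partly into the annotated gene, which for Lamb2 starts at chr9:108479736.

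RefSeq windows were matched for 25 of the 40 members, and 23 of them lay within 1000 bases of the start of the member's leading transcript by counts. The median CG count was 13 in the windows of 18 detected members (range 0 to 22) and 5 in those of 5 other members (range 2 to 6), against 6 over all 32851 windows. The richest window was that of Itga3, with 22, and the poorest that of Lama2, with 0. The motif GGGCGG, searched on both strands, was in 10 of the 23 windows (43.5%), against 32.7% of all windows. TATAAA, searched the same way, was in 0 of the 23, against 12.4% of all windows. These matches describe letters in a window and no binding was measured.

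Of the 40 members, 26 (65%) reached a TPM of at least 1 in both pools and were called detected, against 58.9% of all protein-coding genes. Over the members the median of mean TPM was 3.62, against 4.08 over all protein-coding genes, and among detected genes it was 12.7, against 21.9. Both medians of the members thus lay under those of protein-coding genes. A mean of at least 10 TPM was reached by 14 members (35%). The lowest of these, Lama1 at 12.1 TPM, was above 61.5% of protein-coding genes. Itgb1, the highest, was above 92.9% of protein-coding genes. The same 26 members were at or above 1 TPM in either pool alone. Just inside the threshold were Itga2 (1.08 TPM) and Itgb3 (1.35 TPM), and just outside were Itgb4 (0.77 TPM) and Itgb7 (0.60 TPM). Without transcripts under 1000 bases Itga2 had a mean of 0.96 TPM and Itgb7 of 0.24 TPM, while Itgb3 and Itgb4 did not change.

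**Figure D1:**
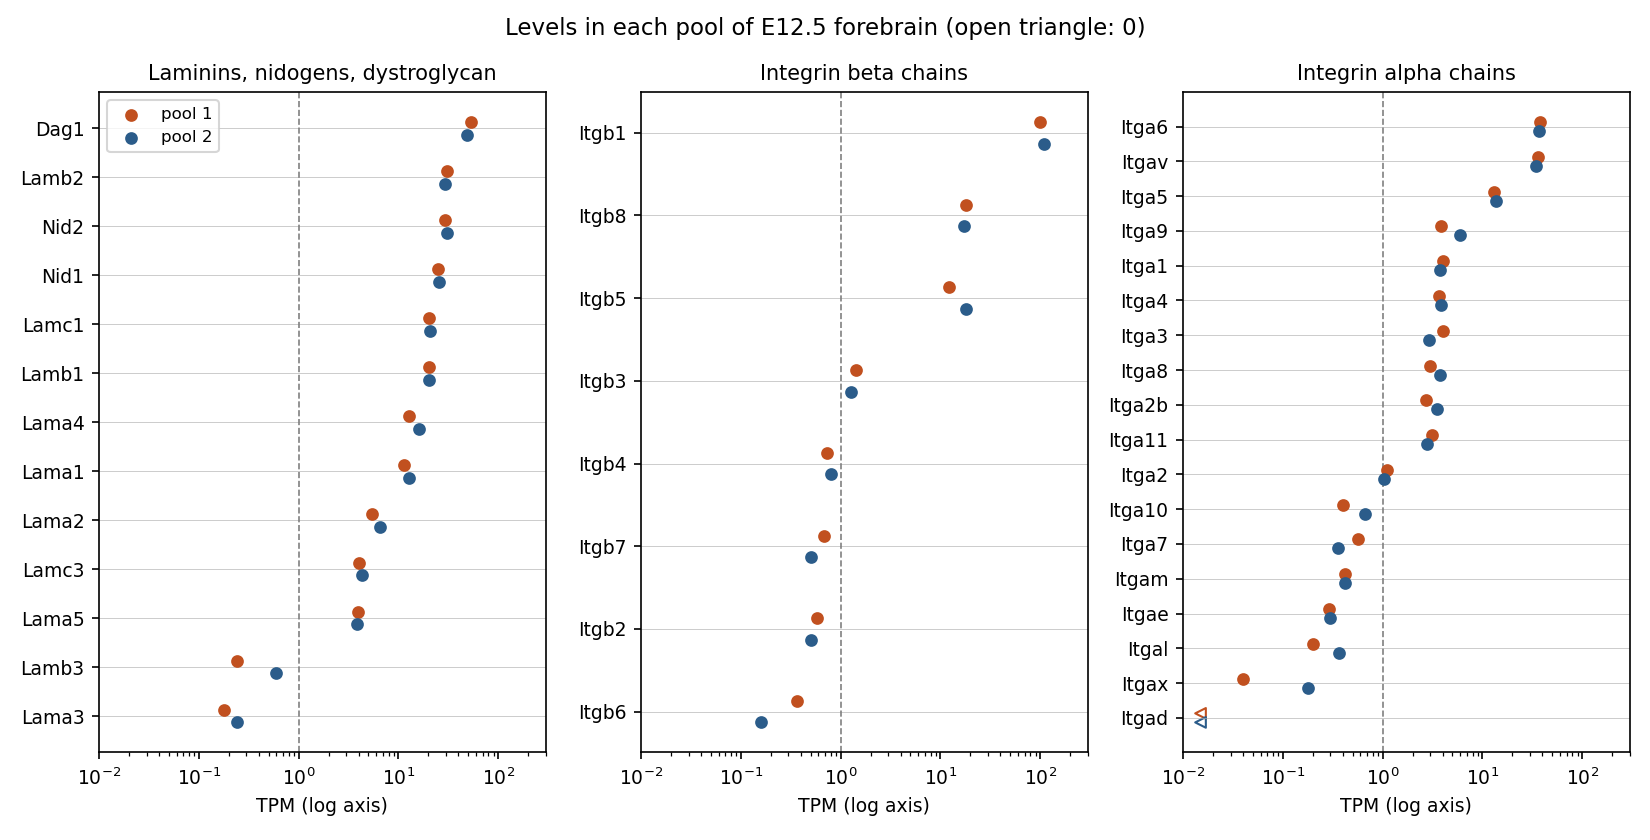
Level of each member in pool 1 (orange, upper point) and pool 2 (blue, lower point) in TPM on a log axis, in 3 panels by role, 1 member not shown; the dashed line is 1 TPM and open triangles mark 0. Itgb1, at 100.1 TPM for pool 1 and 109.6 TPM in pool 2, stands above every other member, and points of most members lie close together.

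Laminin alpha chains set which receptors a laminin can bind, and 4 of 5 were detected. Lama4, a chain of vessel basement membranes, had 12.8 TPM in pool 1 and 16.0 TPM in pool 2. Lama1, the main alpha chain of early embryonic basement membranes, had 11.4 TPM in pool 1 and 12.9 in pool 2. Their ranges over the pools overlap, but within each pool Lama4 was the higher, 1.13 times Lama1 in pool 1 and 1.24 times in pool 2. With 2 pools this order was not tested. Lama2, best known from muscle and peripheral nerve, had 5.39 TPM in pool 1 and 6.49 in pool 2. Lama5, broadly used in epithelia and vessels, had 3.98 TPM in pool 1 and 3.82 in pool 2, or a mean of 1.56 TPM without transcripts under 1000 bases. Lama3, the alpha chain of skin laminin, was below the threshold at 0.18 TPM in pool 1 and 0.24 in pool 2, from 25 counts in pool 1 and 30 in pool 2. Apart from the leading pair, neighbours in this order did not overlap.

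Both widely used beta chains were detected. Lamb2 had 30.8 TPM in pool 1 against 29.6 TPM in pool 2. Lamb1 had 20.4 TPM in pool 1 and 20.1 in pool 2, so Lamb2 exceeded Lamb1 1.51-fold in pool 1 and 1.47-fold in pool 2. Without transcripts under 1000 bases the gap was smaller, with means of 22.9 TPM for Lamb2 and 19.1 TPM for Lamb1. Lamb2 lies at chr9:108479736-108490530 and Lamb1 at chr12:31265234-31329644 (both GRCm38, + strand). Of the gamma chains, Lamc1, which is part of most laminins, had 20.3 TPM in pool 1 and 20.6 in pool 2 and lies at chr1:153218922-153332786 (- strand). Lamc3 had 4.06 TPM in pool 1 and 4.35 in pool 2. Lamc1 was thus 4.99 times Lamc3 in pool 1 and 4.74 times in pool 2. Lamb3, the beta chain of skin laminin, was below the threshold at 0.24 TPM in pool 1 and 0.60 in pool 2. In all, 8 of the 11 laminin chains were detected.

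Summed by type, laminin alpha chains held 33.7 TPM in pool 1 and 39.4 TPM in pool 2. Beta chains held 51.4 TPM in pool 1 and 50.4 in pool 2, and gamma chains 25.0 TPM in pool 1 and 25.3 in pool 2. A trimer takes 1 chain of each type, and at the RNA level the beta chains came to 2.05 times the gamma chains in pool 1 and 1.99 times in pool 2. The alpha chains came to 1.35 times the gamma chains in pool 1 and 1.55 times in pool 2. These sums include transcripts under 1000 bases. Without them the mean of Lama4 was 11.1 in place of 14.4 TPM, and that of Lama1 9.32 in place of 12.1. Lama2 fell from 5.94 to 4.47 TPM, Lama5 from 3.90 to 1.56 and Lamb2 from 30.2 to 22.9. Lamc1 stayed at 20.3 of 20.4 TPM, and Lamc3 did not change. Both ratios to the gamma chains would thus be lower without short transcripts. RNA levels do not give the amounts of protein chains.

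Both nidogens were higher than the laminin chains other than Lamb2, and Nid2 and Lamb2 overlapped. Without transcripts under 1000 bases the mean of Lamb2 (22.9 TPM) was below those of Nid2 (27.5 TPM) and Nid1 (23.3 TPM). Nid2 had 29.6 TPM in pool 1 against 30.9 TPM in pool 2, and Nid1 had 25.0 TPM in pool 1 and 25.3 in pool 2, with no overlap between them. Nid2 shares 8.45% of its exon bases with Rtraf on the opposite strand, a gene at 200 TPM in pool 1 and 217 in pool 2, and whether counting used strand is not given, so part of the Nid2 level is uncertain. Dystroglycan, encoded by Dag1 at chr9:108204634-108263958 (- strand), had 53.0 TPM in pool 1 and 49.1 TPM in pool 2. That was the second highest level of all members, and Dag1 came to 0.529 times Itgb1 in pool 1 and 0.448 times in pool 2.

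In all, 4 of the 8 integrin beta chains were detected, and 1 of them dominated. Itgb1, the partner of most laminin, collagen and fibronectin binding alpha chains, lies at chr8:128685654-128733200 (+ strand) and had 100.1 TPM in pool 1 and 109.6 TPM in pool 2. It made up 74.6% of summed beta chain TPM in pool 1 and 73.9% in pool 2. Itgb8 and Itgb5, both partners of the alpha v chain, followed. Itgb8, known for its role in activating TGF beta around brain vessels, had 18.1 TPM in pool 1 and 17.3 in pool 2, and Itgb5, a vitronectin receptor chain, had 12.2 TPM in pool 1 and 18.1 in pool 2. Their ranges overlap. Itgb3, the beta chain of the platelet integrin and also a partner of alpha v, had 1.44 TPM in pool 1 and 1.26 in pool 2.

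The other beta chains were under 1 TPM in both pools. Itgb4, the hemidesmosome chain that pairs with alpha 6, had 0.73 TPM in pool 1 and 0.81 TPM in pool 2. Itgb2, shared by the leukocyte integrins, had 0.58 TPM in pool 1 and 0.50 in pool 2, Itgb7, a lymphocyte chain, 0.69 TPM in pool 1 and 0.51 in pool 2, and Itgb6, an epithelial partner of alpha v, 0.37 TPM in pool 1 and 0.16 in pool 2. Each of these 4 rested on between 13 and 101 counts per pool.

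Of the 18 integrin alpha chains, 11 were detected. The laminin-binding class was led by Itga6, at chr2:71745616-71858416 (+ strand), with 37.7 TPM in pool 1 and 36.9 TPM in pool 2. Itga6 made up 89.0% of that class in pool 1 and 91.8% in pool 2. These levels include transcripts not annotated as coding, which held 45.6% of Itga6 TPM in pool 1 and 47.3% in pool 2. For Itga3 they held 30.6% in pool 1 and 6.44% in pool 2. Itga3, also a laminin receptor chain of radial glia and neurons, had 4.07 TPM in pool 1 and 2.95 in pool 2, so Itga6 was 9.27 times Itga3 in pool 1 and 12.5 times in pool 2. Itga7, the muscle laminin receptor chain, was below the threshold at 0.57 TPM in pool 1 and 0.36 in pool 2.

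All 4 alpha chains that recognise the RGD tripeptide of their ligands were detected. Itgav, which pairs with several beta chains including Itgb5 and Itgb8, had 36.3 TPM in pool 1 and 34.7 TPM in pool 2, though most of this was a short transcript (Itgav-205). Itga5, the fibronectin receptor chain, had 13.1 TPM in pool 1 and 13.6 in pool 2. Itga8, a nephronectin receptor chain, had 2.99 TPM in pool 1 and 3.78 in pool 2, and Itga2b, the platelet chain that pairs with Itgb3, had 2.75 TPM in pool 1 and 3.54 in pool 2, or a mean of 1.65 TPM without transcripts under 1000 bases. Markers of megakaryocytes and platelets were present beside Itga2b and Itgb3, with 3 of 5 detected and a summed level of 34.5 TPM in pool 1 and 42.9 TPM in pool 2. Their part in these levels was not tested.

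The collagen-binding class was low, with Itga1 at 4.03 (pool 1) and 3.77 TPM (pool 2), Itga11 at 3.10 TPM in pool 1 and 2.82 in pool 2, and Itga2 at 1.12 TPM in pool 1 and 1.04 in pool 2. Itga10, known from cartilage, was below the threshold at 0.40 TPM in pool 1 and 0.66 in pool 2. Summed, the class held 8.65 TPM in pool 1 and 8.29 TPM in pool 2. The laminin-binding class was thus 4.90 times as high in pool 1 and 4.85 times in pool 2. Both sums include transcripts not annotated as coding, which held 60.0% of Itga1 TPM in pool 1 and 54.2% in pool 2. Itga4 and Itga9, which bind VCAM1 and, for Itga9, tenascin C, were both detected. Itga4 had 3.64 TPM in pool 1 and 3.81 in pool 2, and Itga9 had 3.84 TPM in pool 1 and 5.99 in pool 2.

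None of the 5 leukocyte and E-cadherin binding alpha chains was detected. Itgam, of macrophages, had 0.42 TPM in both pools, Itgae 0.29 (pool 1) and 0.30 TPM (pool 2), and Itgal 0.20 TPM in pool 1 and 0.37 in pool 2. Itgax had 1 count in pool 1 and 3 counts in pool 2. Itgad had 0 counts in both pools, and 3 counts would have been 0.0566 TPM in pool 1 or 0.0544 TPM in pool 2. For 0 counts that is an approximate 95% upper limit, which covers counting error only. Microglia and macrophage markers were nevertheless present, with 6 of 7 detected and a summed level of 42.1 TPM in pool 1 and 47.0 TPM in pool 2. Itgam shares 68.7% of its exon bases with Gm49368 on the same strand and Itga10 shares 33.5% with Gm42957, so both levels are uncertain.

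Integrins work as pairs, and summed TPM of the alpha chains over that of the beta chains was 0.853 in pool 1 and 0.777 in pool 2 (0.815 ± 0.0541). Over all members 23 of the 39 pairs of neighbours in the order of levels overlapped between pools. The overlaps lay mostly below 20 TPM: from Itgb1 down through Dag1, Itga6, Itgav and Lamb2 the ranges of neighbours did not overlap. Among the alpha chains, Itga9, Itga1, Itga4, Itga3, Itga8, Itga2b and Itga11 formed a run in which each overlapped the next.

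The transcript tables list 216 transcripts for the 40 members, and for several members the level in TPM rested on short ones. A few reads on a short transcript give a high TPM, since TPM is per length. For 3 of the 26 detected members (Lama2, Itgav and Itga6) the leading transcript by TPM was not the leading one by counts in either pool, against 8.95% of detected protein-coding genes with several transcripts. Itgav-205, 463 bases long and lying at the 3′ end of the gene (chr2:83802921-83806916), held 66.7% of Itgav TPM in pool 1 and 61.9% in pool 2, but 11.1% of its counts in pool 1 and 10.5% in pool 2. The 7054-base Itgav-201 held 69.6% of the counts in pool 1 and 57.1% in pool 2. Without transcripts under 1000 bases the mean level of Itgav was 10.6 TPM in place of 35.5 TPM, and it ranked number 13 in place of number 4 among the members.

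Lama5 and Itga2b also moved by more than 1.5-fold when short transcripts were left out, to 1.56 TPM (Lama5) and 1.65 TPM (Itga2b). The full-length Lama5-201, 11388 bases, held 93.2% of Lama5 counts in pool 1 and 94.5% in pool 2, but 36.6% of its TPM in pool 1 and 43.6% in pool 2. In Lamb2, the 578-base retained intron transcript Lamb2-205 held 19.2% of TPM in pool 1 and 20.0% in pool 2. At the other end stood Itgb1, whose 3815-base Itgb1-201 held 99.8% of TPM in pool 1 and 99.1% in pool 2. In all, 20 of the 26 detected members had over 80% of their counts in 1 transcript in both pools, and 10 had over 80% of their TPM there. By the mean share of the pools, the leading transcript by TPM was protein-coding in 25 of the 26, Itga6 being the exception. The matching shares over all detected protein-coding genes were not computed, so these counts only describe the members. In single pools retained introns also led, with Itga1-206 at 45.7% of Itga1 TPM in pool 1 and Lama2-206 at 30.4% of Lama2 TPM in pool 2. Lamc1 had 2 transcripts with TPM that are annotated as coding. The 7622-base Lamc1-201 held 60.4% of TPM in each pool, and the 1447-base Lamc1-204 held 38.1% in pool 1 and 39.6% in pool 2. By counts, however, Lamc1-204 held 10.1% in pool 1 and 10.5% in pool 2. It has 310 coding bases, against 4821 in Lamc1-201.

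**Figure D2:**
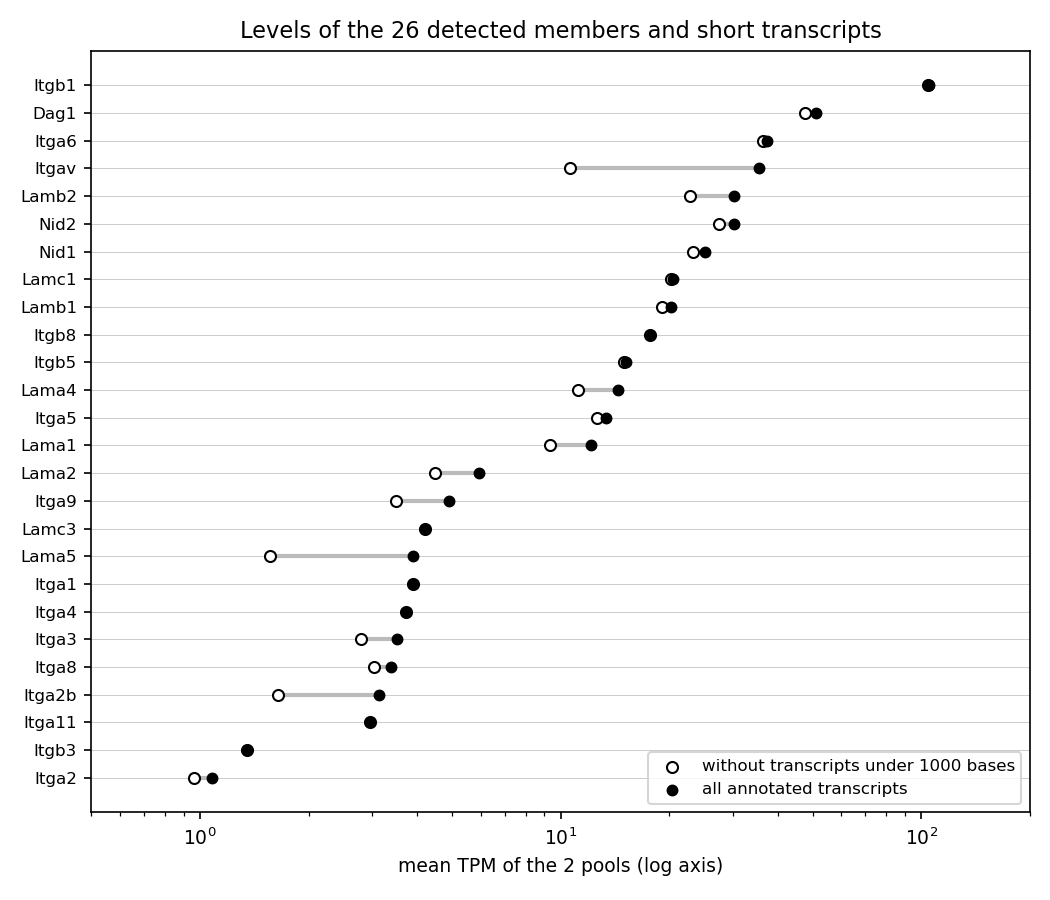
Mean TPM of the 2 pools, on a log axis, for the 26 detected members, without transcripts under 1000 bases (open) and with all annotated transcripts (filled), joined by a grey line. Itgav (10.6 against 35.5 TPM), Lama5 and Itga2b have the long lines, while Itgb1 does not move visibly.

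Itga6 and Itga3 each carry an alternative exon near the end of the coding region, exon 25 of 26 in both. As background, its inclusion gives the A form of the cytoplasmic tail and its skipping the B form. The coding part of each exon is shown, from GENCODE M21 transcripts and on the gene's strand, because the 2 laminin receptor chains used it in opposite proportions. The Itga6 stretch is 105 bases at chr2:71853534-71853638 (+) and the Itga3 stretch 108 bases at chr11:95046483-95046590 (-), both GRCm38. Capitals mark a run of 12 bases that both share, starting at base 4 of each.
Itga6: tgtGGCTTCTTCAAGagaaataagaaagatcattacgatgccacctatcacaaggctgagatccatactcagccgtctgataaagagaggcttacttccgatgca
Itga3: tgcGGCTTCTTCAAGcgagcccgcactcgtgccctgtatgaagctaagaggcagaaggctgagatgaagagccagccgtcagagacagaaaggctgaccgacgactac
The shared run encodes part of the segment next to the membrane that is conserved among integrin alpha chains.

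In Itga6, the transcript with the exon (Itga6-201) held 22.5% of the summed TPM of Itga6-201, Itga6-202 and Itga6-203 in pool 1 and 18.2% in pool 2 (20.3 ± 3.00%). In Itga3 the transcripts with it (Itga3-201 and Itga3-202) held 81.3% of their sum with Itga3-203 in pool 1 and 79.0% in pool 2 (80.1 ± 1.62%). The exon was thus mostly skipped in Itga6 and mostly included in Itga3, and the pools of the 2 genes did not overlap. By counts the share with the exon was 27.0% in pool 1 and 22.1% in pool 2 for Itga6, and 81.8% in pool 1 and 79.5% in pool 2 for Itga3. The Itga6 value depends on Itga6-203, a 2721-base non-coding transcript of the 3′ end that lacks the exon and led Itga6 by TPM in both pools, with 37.4% in pool 1. Between the full-length Itga6-201 and Itga6-202 alone, a comparison added after seeing the data, the share with the exon was 38.3% in pool 1 and 32.1% in pool 2. That is still below the Itga3 share in each pool. Itga3 rested on few reads, with 232 counts with the exon and 51.7 without it in pool 1, and 228 and 59.1 in pool 2. Itga7 was looked at for another choice, between 2 mutually exclusive exons that are each exon 5 of 25, far from the tail. That choice could not be read at this depth, since the 23.8 counts in pool 1 and 28 counts in pool 2 fell to opposite forms. The tail exon of Itga7 was not examined.

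**Figure D3:**
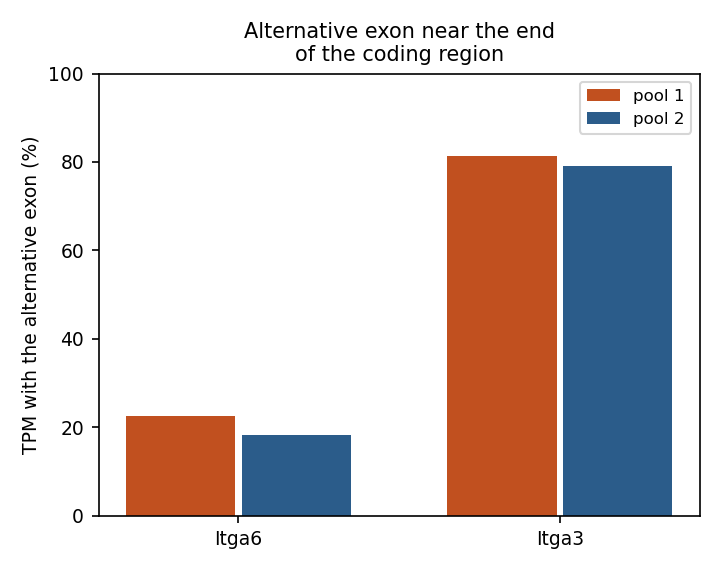
Share of TPM (%) in transcripts with the alternative exon 25, in pool 1 (orange) and pool 2 (blue), for Itga6 and Itga3; bars start at 0. The Itga6 bars stand at 22.5% (pool 1) and 18.2% (pool 2), and the Itga3 bars at 81.3% (pool 1) and 79.0% (pool 2).

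The genes that work with these chains were given as 5 lists. Basement membrane partners were the highest relative to the members, with all 6 detected and a median of 71.1 TPM. Sparc, a collagen-binding matrix protein, had 257 TPM in pool 1 against 309 TPM in pool 2, and Agrn, a proteoglycan that binds laminin and dystroglycan, had 119 TPM in pool 1 and 109 in pool 2. Of the collagen IV chains, Col4a1 had 78.2 TPM in pool 1 and 79.6 in pool 2 and Col4a2 had 39.0 TPM in pool 1 and 40.1 in pool 2. Col18a1 had 61.6 TPM in pool 1 and 65.1 TPM in pool 2. Hspg2, which encodes perlecan, was the lowest at 6.26 TPM in pool 1 and 6.97 in pool 2.

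Of 15 other integrin ligands 14 were detected, with a median of 8.43 TPM. Fbln1 had 78.7 TPM in pool 1 against 87.6 TPM in pool 2, and Fn1, the fibronectin gene and ligand of Itga5, had 72.7 TPM in pool 1 and 75.6 in pool 2. Vcam1, a ligand of Itga4 and Itga9, had 29.9 TPM in pool 1 and 29.1 in pool 2, and Thbs1 had 24.8 TPM in pool 1 and 31.8 in pool 2. Tgfb1 was near the threshold at 1.21 TPM in pool 1 and 1.01 in pool 2. Madcam1, the ligand of the Itga4 and Itgb7 pair, was the only one below it, at 0.77 TPM in pool 1 and 0.82 in pool 2. Of 18 integrin adhesion adaptors 17 were detected, with a median of 38.3 TPM. They were led by the integrin-linked kinase gene Ilk (144 TPM in pool 1, 147 in pool 2), Crk (114 TPM in pool 1, 109 in pool 2), the focal adhesion kinase gene Ptk2 (82.3 TPM in pool 1, 88.8 in pool 2) and Lims1 (69.7 TPM in pool 1, 66.6 in pool 2). Parvb was at 1.54 TPM in pool 1 and 1.91 in pool 2, and Fermt1, the kindlin of epithelia, was the only adaptor below the threshold at 0.72 TPM in pool 1 and 0.65 in pool 2.

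All 18 genes of dystroglycan glycosylation were detected, with a median of 20.9 TPM. The dolichol-phosphate mannose synthase genes led, with Dpm2 at 82.6 (pool 1) and 85.9 TPM (pool 2), Dpm1 at 61.9 TPM in pool 1 and 68.9 in pool 2 and Dpm3 at 65.8 TPM in pool 1 and 62.0 in pool 2. Pomgnt1, which extends the mannose, had 45.7 TPM in pool 1 and 46.6 in pool 2. The lowest were Ispd, at 6.59 TPM in pool 1 and 6.30 in pool 2, and Large2, at 4.10 TPM in pool 1 and 4.29 in pool 2. Of the 13 genes of the dystrophin complex, which ties dystroglycan to the cytoskeleton, 11 were detected, with a median of 6.18 TPM. Sgce had 46.7 TPM in pool 1 and 45.1 in pool 2, Dtnb 23.5 TPM in pool 1 and 32.6 in pool 2, Utrn 23.6 TPM in pool 1 and 26.9 in pool 2 and Dmd 16.2 TPM in pool 1 and 17.9 in pool 2. Sgca, a muscle sarcoglycan, was the lowest, with 0 counts in both pools. Of the 5 skeletal muscle markers 1 was detected, with a summed level over the 5 of 2.86 TPM in pool 1 against 6.86 TPM in pool 2.

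**Figure D4:**
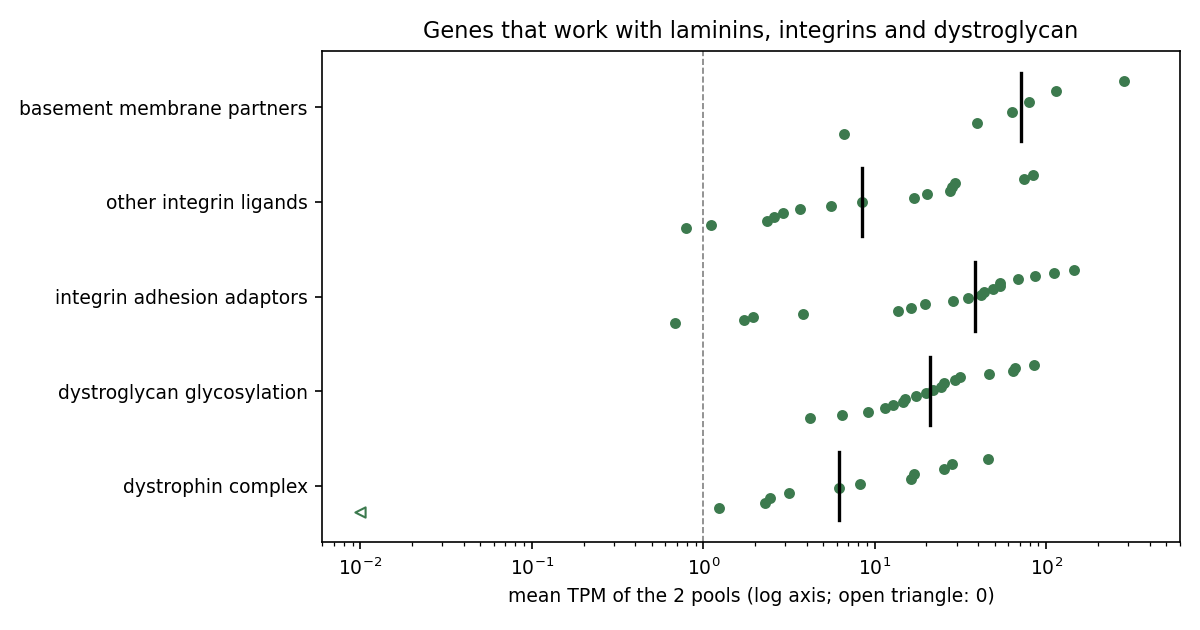
Mean TPM of the 2 pools for each gene of 5 lists of genes that work with laminins, integrins and dystroglycan, on a log axis; 1 gene is not shown, black bars are medians of the full lists, the dashed line is 1 TPM and the open triangle is Sgca at 0. Basement membrane partners have the highest median (71.1 TPM) and the dystrophin complex the lowest (6.18 TPM).

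Between the pools most members differed by less than 1.5-fold. Of the 38 members with a mean count of at least 10, 2 were over 1.5-fold higher in pool 1, against 2.39% of 14805 protein-coding genes, and 3 were over 1.5-fold higher in pool 2, against 4.4%. In either direction that was 5 of 38, against 6.79%. The median log2 ratio of normalised counts, pool 1 over pool 2, was -0.03 for the members and 0.01 for all protein-coding genes. Of the 38, 17 were higher in pool 1 by any amount, against 53.4% of all, and 21 in pool 2, against 46.6%. With 1 library a pool these ratios have no replicate check, and the intervals that follow are exact binomial intervals at 95% that cover counting error only.

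Higher in pool 1 was Itgb6, an epithelial chain below 1 TPM, with 31 counts in pool 1 and 13 counts in pool 2 (2.51-fold, 1.28 to 5.23). Surface epithelium markers, 6 of 6 detected, had a summed level of 51.0 TPM in pool 1 against 44.9 TPM in pool 2, and 3 of them were higher in each pool. Higher in pool 2 were Itga9, with 319 counts in pool 1 and 591 counts in pool 2, Itgb5, with 762 in pool 1 and 1252 in pool 2, and Itgal, with 18 in pool 1 and 41 in pool 2. On normalised counts the log2 ratio of pool 1 over pool 2 was -0.81 for Itga9, -0.64 for Itgb5 and -1.07 for Itgal. As pool 2 over pool 1 that was 1.76-fold for Itga9 (1.53 to 2.02), 1.56-fold for Itgb5 (1.42 to 1.71) and 2.16-fold for Itgal (1.21 to 4.00). Itga9 and Itgb5 are the members over this fold that were also detected. On TPM the Itgb5 call is lost, with log2 ratios of -0.56 for TPM + 0.1 and -0.53 for TPM + 1. Itga9 stayed over 1.5-fold with TPM + 0.1 (-0.63) but not with TPM + 1 (-0.53).

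Markers of several other cell types moved toward pool 2 with them. All 8 markers of mesenchyme and meninges were higher in pool 2 (median log2 ratio of pool 1 over pool 2 -0.37), as were all 6 erythroid markers (-0.44) and all 4 choroid plexus markers (-0.74). Of the megakaryocyte and platelet markers 4 of 5 were higher in pool 2 (-0.37). Of the skeletal muscle markers, 3 had a mean count of at least 10, and their median was -1.22. Actc1 had 62 counts in pool 1 and 153 in pool 2, and Myog 1 count in pool 1 and 29 in pool 2. Des, also among these 3, went the other way, with 36 counts in pool 1 and 34 in pool 2 (0.15). The choroid plexus list had a summed level of 48.2 TPM in pool 1 against 92.4 TPM in pool 2. The part of these cell types in the higher Itga9 and Itgb5 of pool 2 was not tested. Neural progenitor and endothelial markers had medians of 0.02 and 0.08, and postmitotic neuron and pericyte markers 0.13 and 0.10. For microglia and macrophage markers the median was -0.07, with 5 of 7 higher in pool 2. The highly expressed members moved less: Itgb1 had a log2 ratio of -0.11, Dag1 0.10, Itga6 0.08, Lamb2 0.11 and Lamc1 -0.01. Signs this close to 0 depend on the scaling, since with ERCC totals the median of all protein-coding genes was -0.15.

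**Figure D5:**
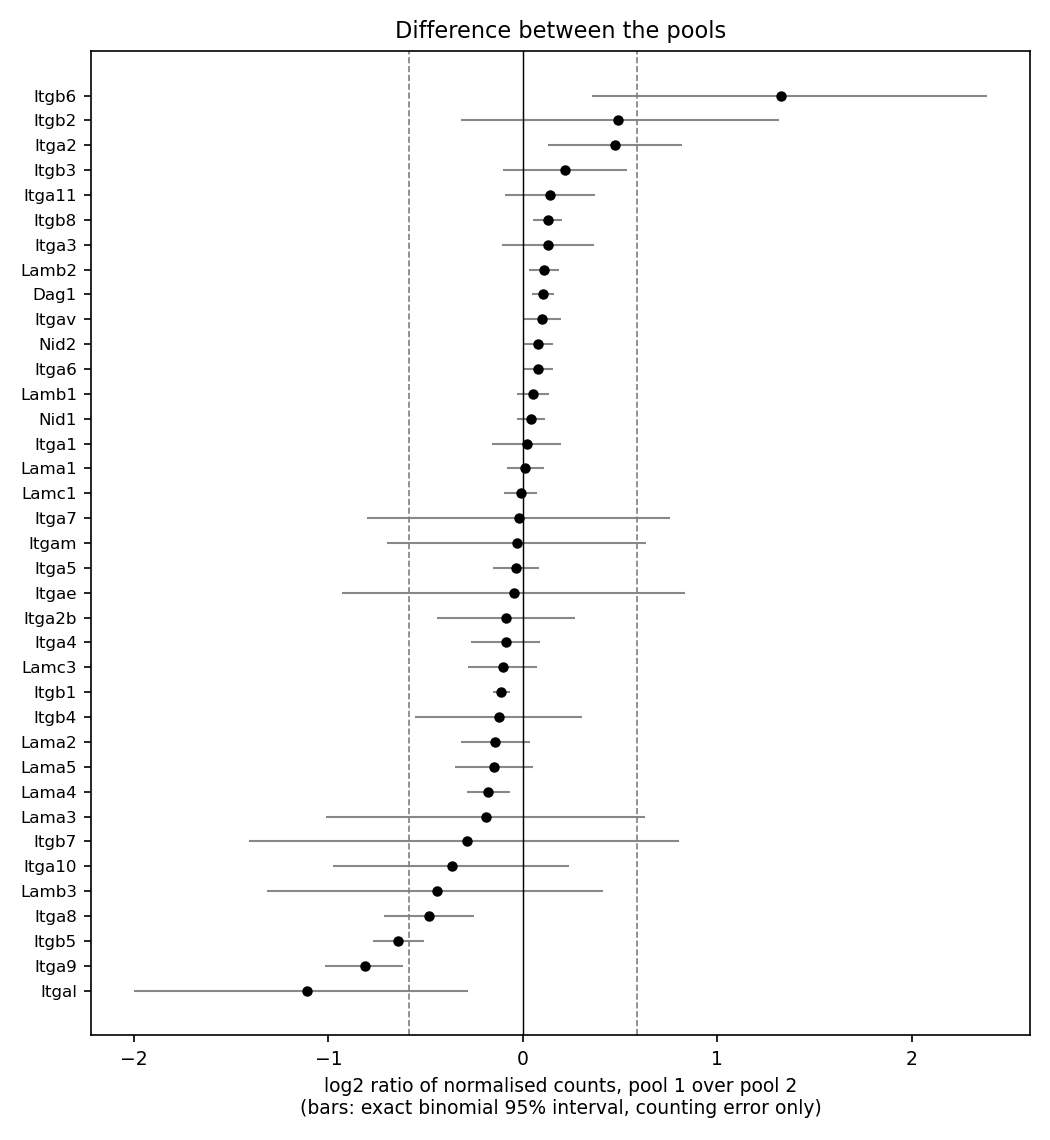
Log2 ratio of normalised counts (without a prior count), pool 1 over pool 2, for members with a mean count of at least 10, 1 of them not shown; bars are exact binomial 95% intervals for counting error only and dashed lines mark 1.5-fold. Itgb6 lies right of the dashed lines and Itgb5, Itga9 and Itgal left of them, while Itgb1, Dag1 and Itga6 lie near 0.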

How the data were processed

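PolyA-plus RNA of 2 embryonic forebrain pools was analysed. The authors deposited, per the file headers, expected counts (estimated reads, not normalised), TPM, FPKM and posterior mean TPM (treated as a score) per gene and transcript, for mm10 with GENCODE M21 and, as an alternative, M4. Aligner, quantifier and strand setting were not given in the sources used here. Numbered entries that name no gene held 5.96e-05% of counts in pool 1 and 9.3e-05% in pool 2 and were left out.

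Expected counts were rounded, and edgeR 4.0.16 gave TMM normalisation only (R 4.3.3). Log2 ratios used a prior count of 1, for genes whose counts averaged 10 or more. DESeq2 1.42.0 gave size factors as an alternative. Tables, shares and intervals were made with Python 3.11.15, pandas 2.3.3, numpy 2.4.6 and scipy 1.17.1, and figures with matplotlib 3.10.9. Floors are the TPM of 3 counts. Neither floors nor intervals cover more than counting error, because PCR copies are not independent molecules.

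All members may be named; of companion lists with over 10 genes the 4 highest, the 2 lowest and any gene alone on its side of 1 TPM. Tmem5 was matched as Rxylt1. Members and lists were chosen with earlier results of these data known. Values of 2 further genes, 1 of them a member, are counted in the totals but not reported here. The ratio step was tested on simulated data.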

Additional observations from a re-analysis of the deposited data

How the results depend on the processing

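The number of detected members was 15 at a TPM of at least 5, 29 at a TPM of at least 0.5, 38 at an expected count of at least 10, and between 24 and 30 with M4, FPKM or posterior mean TPM. The integrin alpha over beta ratio was 0.600 without transcripts under 1000 bases, a setting chosen after seeing the data, against 0.815; Itgav-205 is among the transcripts left out. Of the members over 1.5-fold between pools, 2 were left with a mean TPM of at least 1, and 0 with the ratio of TPM + 1. The TPM filter by definition leaves out Itgb6 (mean 0.265 TPM) and Itgal (0.285 TPM), and adding 1 shrinks the ratios of such low levels. For Itga9 and Itgb5 the cause was not tested. With ERCC totals the median log2 ratio of members, pool 1 over pool 2, was -0.18, and that of all protein-coding genes -0.15. Using 1 pool alone, the detected number was 26 to 26 and the alpha over beta ratio 0.777 to 0.853. Among levels, transcript shares and pool ratios of single members, single pools left aside, 151 values under an alternative stayed within the spread of the pools or, for ratios, the counting interval, and 117 moved by more. Levels of the 26 detected members with M4 were 0.779 to 1.12 times the M21 levels. Another alternative among those counted scaled TPM over nuclear protein-coding genes. It multiplied the levels of the 26 by nearly the same factor, 1.248 to 1.249. No paired analysis was possible because there is 1 group, so no groups share replicate numbers. With 2 pools, members under 1 TPM have wide intervals and mostly overlap their neighbours.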
